A study of Mus musculus with 8 samples.

Results

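Neurotensin (Nts), Insm1 and 6 further neuroendocrine genes (Neurog3, Neurod1, Chga, Chgb, Scg5 and Pcsk1) were followed across mouse colon cancer organoids, 8 genes of the 32728 counted. They were chosen by name, as hormone, granule and cell-fate genes of enteroendocrine cells, with their levels in the 4 groups already known, so those levels are described here with their error and no p-value. Only Nts and Insm1 had enough counts to enter the fit across all genes. The other 6 stayed under 1 CPM (counts scaled to library size) in every library, so the 8 genes did not behave as a neuroendocrine set in these cultures: Nts was abundant in 1 line, Insm1 in the other, and their usual companions were near 0 in both.

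The organoids came from C57BL/6 mice and are self-organising epithelial cultures, and in every group CRISPR had been used to disrupt the tumour suppressor genes Apc, Trp53 and Smad4. CTO19 (labelled male) was grown without EGF for 7 days (noEGF) or with EGF for 3 days (EM), and apsMC706 (labelled female) was grown in the same 2 ways. All media held B27, noggin, which blocks BMP ligands, and galunisertib, an inhibitor of the TGF-beta receptor. The 2 media were also 2 lengths of culture and the 2 lines carried different sex labels, so medium and time, and line and sex, cannot be told apart, and each sex label rests on 1 line. Each group held 2 libraries of poly(A) RNA. The labels do not say that the 2 came from separate cultures, so errors and p-values cover only the spread between these libraries.

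Enteroendocrine cells are the scattered hormone-releasing cells of the gut lining. In the mouse intestine they arise from progenitors that switch on the basic helix-loop-helix factor Neurog3, which is followed by Neurod1 and by the zinc-finger repressor Insm1. Mature cells pack peptide hormones into dense granules with chromogranins such as Chga and Chgb, and cut hormone precursors with the convertases Pcsk1 and Pcsk2, and Scg5 is the chaperone of Pcsk2. Neurotensin is a peptide of such cells, the N cells, mainly of the lower small intestine, and of neurons.

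The libraries held 35650262 to 38953838 counts, and 3 counts, the upper limit that a count of 0 allows, came to 0.0745 to 0.0868 CPM. The targeted genes still gave transcripts, which does not check the edits, since edited transcripts can be counted. Apc averaged 78.1 and 64.3 CPM in CTO19 noEGF and EM and 178 and 195 CPM in apsMC706 noEGF and EM. Trp53 lay between 14.7 and 30.8 CPM and Smad4 between 11.8 and 39.4 CPM as group means. Each of 15 markers of colon epithelium had counts in at least 1 library, and Epcam, an epithelial surface protein, averaged 362 to 639 CPM in the 4 groups. Of these markers 13 were tested, and in CTO19 against apsMC706 2 were higher and 10 lower in EM (median log2 fold change -3) and 2 higher and 11 lower in noEGF (median -2.62). Called, at an adjusted p under 0.05, were 92.3% in EM and 100% in noEGF, against 71.3% and 80% of all tested genes. Hnf4a, a factor of gut epithelium, averaged 0.767 CPM in CTO19 noEGF and 53.8 CPM in apsMC706 noEGF, so the line with Nts was the one with less of most colon markers. Krt20, a keratin of mature colon surface cells, stayed at 0 to 0.128 CPM as a group mean.

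Nts, which encodes the precursor of neurotensin and neuromedin N, lies on the minus strand of chromosome 10 at 102481756 to 102490486 (mm10), has 4 exons and overlaps no other annotated gene. Its upstream sequence is shown because Nts had the largest level of the 8 genes, beside those of Chgb and Pcsk1, which share a motif with it and had almost no counts. Each is the 250 bases before the RefSeq start (GRCm38.p6), 5′ to 3′ on the gene's strand: chr10:102490419-102490668 on the minus strand for Nts, chr2:132781392-132781641 on the plus strand for Chgb and chr13:75089607-75089856 on the plus strand for Pcsk1. By the gene bounds of GENCODE M21 the starts lie further upstream. The Chgb window then lies inside its gene, which starts at 132781278, and the Nts and Pcsk1 windows overlap their genes in part. Capitals mark matches to the cAMP-response-like element TGACNTCA and, in Nts, to the AP-1 element TGANTCA.
Nts: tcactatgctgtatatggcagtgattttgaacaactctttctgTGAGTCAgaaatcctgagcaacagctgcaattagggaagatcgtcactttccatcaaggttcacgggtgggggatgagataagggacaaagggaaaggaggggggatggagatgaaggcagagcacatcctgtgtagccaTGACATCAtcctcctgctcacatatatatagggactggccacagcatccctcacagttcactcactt
Chgb: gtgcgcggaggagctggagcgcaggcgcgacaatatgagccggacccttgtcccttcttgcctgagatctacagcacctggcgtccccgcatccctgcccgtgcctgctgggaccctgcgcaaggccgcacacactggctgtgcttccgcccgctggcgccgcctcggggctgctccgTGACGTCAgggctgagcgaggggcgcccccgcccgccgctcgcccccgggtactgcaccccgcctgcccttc
Pcsk1: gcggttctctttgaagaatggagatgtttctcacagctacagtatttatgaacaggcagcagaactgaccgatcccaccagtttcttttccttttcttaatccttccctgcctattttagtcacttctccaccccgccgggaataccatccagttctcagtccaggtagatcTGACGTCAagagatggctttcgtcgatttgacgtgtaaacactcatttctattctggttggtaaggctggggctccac
In Nts the AP-1 match TGAGTCA began 207 bases and the match TGACATCA 67 bases before the start. The match TGACGTCA began 72 bases before the start in Chgb and 78 bases before it in Pcsk1. Searched on both strands, TGACNTCA was in 7.49% and TGANTCA in 6.75% of 32851 windows of the same length, the 2 motifs do not overlap in the Nts window, and a match is a description of the sequence alone. The Neurog3, Neurod1, Chga and Scg5 windows held no match to these or to 2 further motifs that were searched, CAGATG and TATAAA, which were in 14.4% and 12.4% of windows.

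Nts was a CTO19 transcript, and far more so without EGF. It had 428 and 361 CPM in the CTO19 noEGF libraries (15896 and 14537 counts) and 4.4 and 4.41 CPM in the CTO19 EM libraries (152 and 157 counts). In apsMC706 it had 3 and 7 counts in noEGF and 4 and 3 counts in EM, or 0.0817 to 0.185 CPM. The CTO19 noEGF libraries were highest, the CTO19 EM libraries lay between, and the apsMC706 libraries overlapped each other at or just over the 3-count limit. In CTO19 the fitted level was 89.5-fold higher in noEGF than in EM (log2 fold change 6.48, SE 0.104, n = 2 each), 34th among 16719 tested genes by increase. In apsMC706 the noEGF libraries together held 10 counts and the EM libraries 7, a ratio of 1.43 with an exact 95% interval of 0.491 to 4.42, which holds 1 and covers counting error only. Because these are bulk libraries, more cells with Nts and more Nts RNA per cell cannot be told apart.

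Between lines, Nts was higher in CTO19 in each medium. Without EGF the CTO19 libraries held 30433 counts against 10 in apsMC706, a ratio of 2930 (95% interval 1590 to 6110). With EGF they held 309 counts against 7, a ratio of 46.9 (22.5 to 118). Per kilobase of merged exons, Nts ranked 198 and 233 of 32680 genes in the CTO19 noEGF libraries, and 9330 and 9254 in the CTO19 EM libraries. It made up 0.0437% and 0.0373% of all counts in the CTO19 noEGF libraries, so without EGF a single hormone gene stood among the abundant transcripts of that line.

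Insm1 had the opposite line pattern. This gene on chromosome 2 at 146221921 to 146225020 (mm10, plus strand) has a single exon and no overlapping gene, and its product represses transcription and is needed for endocrine differentiation in the mouse gut and pancreas. CTO19 libraries held 3 and 5 counts of it in noEGF and 2 and 0 counts in EM. The apsMC706 libraries held 27 and 25.7 CPM in noEGF (989 and 972 counts) and 85.4 and 83.7 CPM in EM (3229 and 3074 counts). The apsMC706 groups lay apart from each other and from every CTO19 library, while the CTO19 libraries were near the 3-count limit. In apsMC706 the level was 3.21-fold lower in noEGF than in EM (log2 fold change -1.68, SE 0.0605, n = 2 each), the 558th decrease by size among the tested genes. In CTO19 the 8 counts of noEGF against 2 of EM gave a ratio of 3.62 with a 95% interval of 0.723 to 35, which holds 1.

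The line gap of Insm1 was among the widest of all tested genes. With EGF, CTO19 held 2 counts against 6303 in apsMC706, a ratio of 0.000337 (95% interval 4.08e-05 to 0.00122), the 9th fitted decrease by size. That fitted value rests on the 2 counts, and without CTO19 EM replicate 1 or 2 it is -14.63 or -10.44 on the log2 scale. Without EGF, CTO19 held 8 counts against 1961, a ratio of 0.00393 (0.00169 to 0.00775), the 58th. On the scale of mean CPM per kilobase, Nts in CTO19 noEGF at 316 was 11.6 times Insm1 in apsMC706 EM at 27.3. Nts and Insm1 thus had their highest levels in different lines and different media, and no library held both above 1 CPM.

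In CTO19 the noEGF libraries lay above the EM libraries for Nts, Insm1 and Chgb, as they did for 42.2% of tested genes, and in apsMC706 they lay below the EM libraries for Insm1, as for 40.9%. Between lines in EM, CTO19 lay above apsMC706 for Nts (44.2% of tested genes) and below it for Insm1 and Neurog3 (40.5%). In noEGF it lay above for Nts (50.9%) and below for Insm1 (39.6%). No member had noEGF and EM libraries that lay apart within each line and in the same direction in both lines, against 48.4% of tested genes. These counts are given as description, since the genes were chosen on these same values.

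The remaining 6 genes, from the switch into the lineage to the enzymes of the mature cell, were near the limit of detection. Neurog3 (chromosome 10), the factor that starts the enteroendocrine programme, had 0 counts in all 4 CTO19 libraries, 3 and 0 counts in apsMC706 noEGF and 4 and 1 counts in apsMC706 EM. It overlaps Fam241b on the opposite strand, and with a kit that does not mark the strand reads of the overlap cannot be assigned. Neurod1 (chromosome 2), which acts after Neurog3, had 0 counts in every library. Neurod1 overlaps Cerkl on the same strand and Gm26755 on the opposite strand, so its reads may also have gone unassigned. As counted, and within the limit of these overlaps, neither factor that in the mouse gut accompanies Insm1 followed Insm1 to a clear level in apsMC706.

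Chga (chromosome 12), the most used marker of endocrine granules, had 1 and 0 counts in CTO19 noEGF, 1 and 0 in CTO19 EM, 2 and 0 in apsMC706 noEGF and 0 in both apsMC706 EM libraries. Chgb (chromosome 2), its relative, had 7 and 6 counts in CTO19 noEGF, 2 and 4 in CTO19 EM, 7 and 3 in apsMC706 noEGF and 8 and 3 in apsMC706 EM. Its noEGF to EM ratios were 1.96 in CTO19 (95% interval 0.696 to 6.3) and 0.909 in apsMC706 (0.346 to 2.36). Chgb was therefore detected in every library, at 0.212 CPM or less, and both intervals hold 1.

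Scg5 (chromosome 2), the chaperone of the Pcsk2 convertase, had 0 and 2 counts in CTO19 noEGF, 1 and 3 in CTO19 EM, 2 and 0 in apsMC706 noEGF and 1 and 5 in apsMC706 EM. Pcsk1 (chromosome 13), the convertase that cuts prohormones in endocrine granules, had 1 count in all, in an apsMC706 noEGF library. At these counts no comparison of groups can be read for Neurod1, Chga, Scg5 or Pcsk1.

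**Figure D1:**
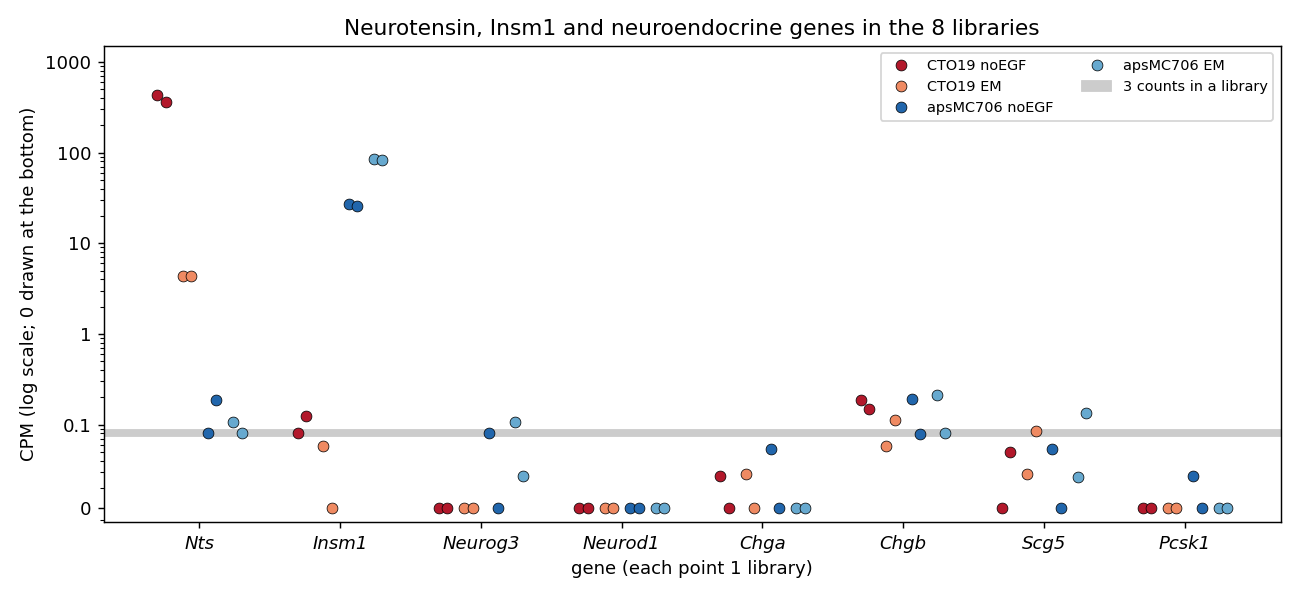
Level of each of the 8 genes in each library, in CPM on a log axis with 0 drawn at the bottom; colours mark the 4 groups and the grey band 3 counts in a library. Nts reaches 361 to 428 CPM in CTO19 noEGF, Insm1 reaches 83.7 to 85.4 CPM in apsMC706 EM, and the other 6 genes stay at or under 0.212 CPM.

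A wider list of 29 enteroendocrine markers gave the same picture. Without Nts and Insm1 it held 27 genes, of which 6 were at 0 in every library, among them Neurod1, Gcg, Gip, Cck and Sst, and 26 stayed under 1 CPM in every library. Their summed level was 0.795 to 0.942 CPM in CTO19 noEGF, 0.782 to 0.815 CPM in CTO19 EM, 2.03 to 3 CPM in apsMC706 noEGF and 1.88 to 2.22 CPM in apsMC706 EM. Thus the 89.5-fold higher Nts of CTO19 noEGF stood beside a marker sum that, apart from Nts itself, was close between the media. The exception to the 1 CPM line was Isl1, a LIM homeodomain factor of several hormone cells, at 1.06 and 0.819 CPM in apsMC706 noEGF and 1.3 and 1.25 CPM in apsMC706 EM, against at most 0.112 CPM in CTO19.

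**Figure D2:**
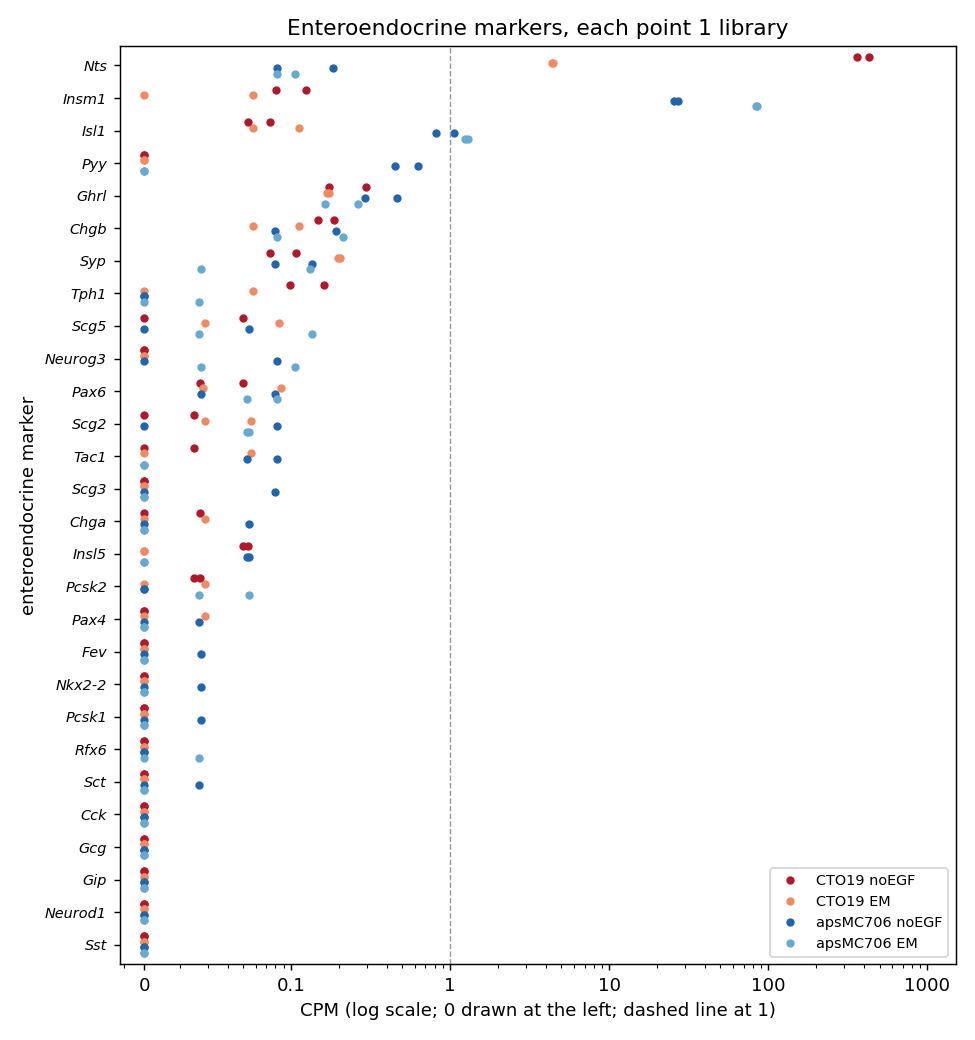
Levels of Nts, Insm1 and other enteroendocrine markers, 1 row per gene and 1 point per library, in CPM on a log axis with 0 at the left. Apart from Nts and Insm1, Isl1 alone passes the dashed line at 1 CPM, reaching 1.3 CPM.

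Transcription factors linked to enteroendocrine fate were next counted as a list of 30, of which 5 were at 0 everywhere, 17 stayed under 1 CPM and 13 were tested. For noEGF against EM in CTO19, 6 were higher and 1 lower (median log2 fold change 0.47, against 0.02 for all tested genes). Some list genes passed the filter on low counts (0.272 CPM in 2 libraries) in a single group, which fixes their direction, and the tests of such genes are not given. In this list there were 2 of the 13, Mnx1 and Onecut3. Of all tested genes 34.7% were called higher and 33.3% lower there, 68% in all. In apsMC706, 4 were higher and 4 lower (median 0.01, against 0), where 34.1% of all tested genes were higher and 33.1% lower, 67.2% in all. Sox4, a factor that acts in endocrine progenitors of the mouse gut and in many other cells, had 640 and 724 CPM in CTO19 noEGF and 189 and 201 CPM in CTO19 EM, a log2 fold change of 1.80 (edgeR quasi-likelihood adjusted p = 3.05e-11). In apsMC706 it had 39.6 and 38.1 CPM in noEGF and 33.2 and 32.3 CPM in EM, so Sox4, like Nts, was highest in CTO19 noEGF, although over a much narrower range.

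Among forkhead factors of gut endoderm the lines differed. Foxa2 had 0.269 and 0.298 CPM in CTO19 noEGF and 17.8 and 16.4 CPM in apsMC706 noEGF (log2 fold change of CTO19 over apsMC706 -5.89, edgeR adjusted p = 6.05e-14). In EM it had 0.232 and 0.14 CPM in CTO19 and 16.5 and 17.4 CPM in apsMC706, so that Foxa2 was, like Insm1, an apsMC706 transcript, but it did not pass the test between media in either line. Foxa1 averaged 268 CPM in CTO19 noEGF and 125 CPM in CTO19 EM, and 203 CPM in apsMC706 noEGF and 334 CPM in apsMC706 EM, so that it rose in CTO19 and fell in apsMC706. Tox3, a high mobility group protein, averaged 0.81 CPM in CTO19 noEGF and 22 CPM in apsMC706 noEGF (log2 fold change -4.75, edgeR adjusted p = 3.7e-14).

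Homeobox factors of the list showed smaller levels. Mnx1, known from motor neurons and beta cells, averaged 1.17 CPM in CTO19 noEGF and 0.0566 CPM in CTO19 EM, and had 1 count in all 4 apsMC706 libraries together. Onecut2 averaged 5.58 CPM in CTO19 noEGF and 0.971 CPM in CTO19 EM (log2 fold change 2.52, edgeR adjusted p = 6.52e-09), while the apsMC706 means were 5.82 CPM in noEGF and 4.94 CPM in EM. Lmx1a, a factor of serotonin cells in the mouse gut, averaged 0.57 CPM in CTO19 noEGF and 1.63 CPM in CTO19 EM. In apsMC706 noEGF it was at 0 against 0.363 CPM in apsMC706 EM, at least 4.51-fold lower. Between lines, CTO19 was higher for 3 and lower for 8 of the 13 tested factors in EM (median -1.8, against 0.02), where 37.5% of all tested genes were higher and 33.8% lower. In noEGF CTO19 was higher for 6 and lower for 6 (median -0.06, against 0.13), where 45.7% of all tested genes were higher and 34.3% lower.

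Most other hormones and neuropeptides were near the limit of detection. Of 32 such genes, 8 were at 0 in every library, 29 stayed under 1 CPM and 7 were tested. In CTO19, 2 were higher and 1 lower in noEGF than in EM (median 0.44, against 0.02), and in apsMC706 3 were higher and none lower (median 0.8, against 0), but 3 of the 7 had passed the filter in a single group and 1 in all 4. That was 42.9% called in each line, against 68% of all tested genes in CTO19 and 67.2% in apsMC706. Pyy, the peptide YY of colonic L cells, had 0.627 and 0.449 CPM in apsMC706 noEGF and 0 counts in the other 6 libraries, at least 6.68-fold higher in apsMC706 noEGF than in apsMC706 EM. Calcb, the calcitonin gene-related peptide beta gene, had 1.16 and 1.34 CPM in CTO19 noEGF, 0.55 and 0.365 CPM in CTO19 EM and 0 counts in apsMC706. Iapp, Grp and Penk, which encode amylin, gastrin-releasing peptide and proenkephalin, had 19, 16 and 13 counts in the CTO19 noEGF libraries together, 1, 0 and 3 in CTO19 EM and 0 in apsMC706. Calcb, Iapp, Grp and Penk were, like Nts, highest in CTO19 noEGF, at levels far under it, but Iapp and Grp had almost no counts in CTO19 EM. Uts2b of the same list had the other order within CTO19, with 9 counts in noEGF and 38 in EM, and 0 in apsMC706. Pyy was found in the line where Nts was near the limit of detection.

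The abundant gene of this list was Nucb2, the nesfatin precursor, a calcium-binding protein also made by cells that are not endocrine. It averaged 35.1 CPM in CTO19 noEGF and 20.5 CPM in CTO19 EM (log2 fold change 0.77, edgeR adjusted p = 5.3e-09). In apsMC706 it averaged 117 CPM in noEGF and 35.3 CPM in EM (log2 fold change 1.72, edgeR adjusted p = 3.35e-13), so it rose without EGF in both lines. Adm, the adrenomedullin precursor, averaged 1.56 CPM in apsMC706 noEGF and 0.443 CPM in apsMC706 EM (log2 fold change 1.81, edgeR adjusted p = 2.75e-05), against at most 0.116 CPM in any CTO19 library.

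Granule proteins and the exocytosis machinery formed a list of 32 with 19 tested. In CTO19, 9 were higher and 5 lower in noEGF (median 0.56, against 0.02), and in apsMC706 8 were higher and 4 lower (median 0.43, or 0.16 with genes at 0 set to the 3-count limit, against 0). The share called was 73.7% in CTO19 and 63.2% in apsMC706, against 68% and 67.2% of all tested genes. Of the 19, 10 had passed the filter in all 4 groups and 4 in 1 group. The granule cargo itself was nearly silent: Scg2, Scg3, Scgn, Resp18 and Pcsk1n had at most 3 counts in any library, Vgf at most 9 and the vesicle protein Syp at most 7. Hid1, a Golgi protein of granule formation, averaged 86.6 CPM in CTO19 noEGF and 39.1 CPM in CTO19 EM (log2 fold change 1.15, edgeR adjusted p = 3.81e-10), and 137 CPM in apsMC706 noEGF and 89.5 CPM in apsMC706 EM (0.62, adjusted p = 8.04e-08). Rph3al fell in both lines, by 0.67 and 0.68 on the log2 scale in CTO19 and apsMC706.

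Several genes of this list lay far apart between the lines, in either direction. Syt7, a synaptotagmin that senses calcium in exocytosis, had 3.31 and 3.03 CPM in CTO19 noEGF and 4.37 and 4.47 CPM in CTO19 EM, but 118 and 120 CPM in apsMC706 noEGF and 54.1 and 53.5 CPM in apsMC706 EM. It fell without EGF in CTO19 and rose in apsMC706, and the difference of the responses was -1.63 (SE 0.106, edgeR adjusted p = 1.02e-08). Rims2, an active-zone scaffold, averaged 0.0507 CPM in CTO19 noEGF and 8.97 CPM in apsMC706 noEGF. Rab27a, a GTPase that docks secretory granules, averaged 6.98 CPM in CTO19 noEGF and 0.0401 CPM in apsMC706 noEGF. Syt13, another synaptotagmin, averaged 1.36 CPM in CTO19 noEGF and 0.656 CPM in CTO19 EM and was at 0 in apsMC706. The vesicle GTPases Rab3a and Rab3d had counts in both lines, Rab3d at 66.9 CPM in CTO19 noEGF and 39 CPM in apsMC706 noEGF and Rab3a at 5.33 and 16.8 CPM in the same groups. Cplx2, a complexin that clamps vesicle fusion, averaged 3.21 CPM in CTO19 noEGF and 0.213 CPM in CTO19 EM.

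Enzymes that cut and finish peptide precursors were mostly the ubiquitous ones. Of 15, 4 stayed under 1 CPM and 11 were tested, with 3 higher and 4 lower in CTO19 noEGF than EM (median -0.2, against 0.02) and 5 higher and 4 lower in apsMC706 (median -0.02, against 0). Called were 63.6% in CTO19 and 81.8% in apsMC706, against 68% and 67.2% of all tested genes. The endocrine convertases Pcsk1 and Pcsk2 had at most 2 counts in any library. Furin, the convertase of the general secretory route, averaged 97.9 CPM in CTO19 noEGF and 113 CPM in CTO19 EM, and 198 CPM in apsMC706 noEGF and 149 CPM in apsMC706 EM. Furin fell by 0.2 on the log2 scale in CTO19 (edgeR adjusted p = 0.000261), where Nts was higher, and rose by 0.42 in apsMC706 (adjusted p = 1.13e-07). Cpe, the carboxypeptidase that trims the cut ends, averaged 142 ± 26.2 CPM in CTO19 noEGF and 178 CPM in CTO19 EM (log2 fold change -0.33, edgeR adjusted p = 0.0568), and 66.6 CPM in apsMC706 noEGF and 67.4 CPM in apsMC706 EM. Pam, which amidates peptide ends, averaged 95.6 CPM in CTO19 noEGF and 278 CPM in apsMC706 noEGF (log2 fold change -1.54, edgeR adjusted p = 5.34e-14).

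Of the receptor genes in the neurotensin list, Ntsr1 and Ntsr2 were absent or low, while Sort1 and Sorl1 were well expressed. Ntsr1, the high-affinity receptor, had 0 counts in every library, and Ntsr2 had at most 3 counts, in a CTO19 noEGF library. Sort1 encodes sortilin, a sorting receptor that also binds neurotensin, and had 145 and 148 CPM in CTO19 noEGF and 47.6 and 47.7 CPM in CTO19 EM (log2 fold change 1.62, SE 0.0409, edgeR adjusted p = 5.5e-13). In apsMC706 it had 102 and 99.9 CPM in noEGF and 93.3 and 92.5 CPM in EM (0.12, adjusted p = 0.0134). The response of Sort1 was larger in CTO19 than in apsMC706 by 1.5 on the log2 scale (edgeR adjusted p = 5.5e-11), a test that 56% of all tested genes passed. Sort1 was therefore highest in the group with the most Nts, but unlike Nts it was well expressed in all 4. Sorl1 averaged 113 CPM in CTO19 noEGF, 118 CPM in CTO19 EM, 222 CPM in apsMC706 noEGF and 137 CPM in apsMC706 EM. Its highest level was thus in apsMC706 noEGF.

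With the receptors, the peptidases that break down such peptides made a list of 12, with 10 tested. In each line 5 were higher and 3 lower in noEGF than in EM (median 0.64 in CTO19, against 0.02, and 0.06 in apsMC706, against 0). That was 80% called in each line, against 68% of all tested genes in CTO19 and 67.2% in apsMC706. Of the membrane peptidases, Ace averaged 1.58 CPM in CTO19 noEGF and 0.628 CPM in CTO19 EM (log2 fold change 1.33, edgeR adjusted p = 0.000127), and 14 CPM in apsMC706 noEGF and 2.22 CPM in apsMC706 EM (2.65, adjusted p = 1.92e-10). Mme, neprilysin, averaged 4.18 CPM in apsMC706 noEGF and 0.427 CPM in apsMC706 EM. Ece1 was higher in noEGF in both lines, by 0.95 and 0.49 on the log2 scale in CTO19 and apsMC706. The mainly intracellular peptidases Thop1, Nln and Prep fell in both lines, Thop1 to 51.8 CPM in CTO19 noEGF, against 71.1 CPM in CTO19 EM, and to 49.9 CPM in apsMC706 noEGF, against 75.5 CPM in apsMC706 EM.

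**Figure D3:**
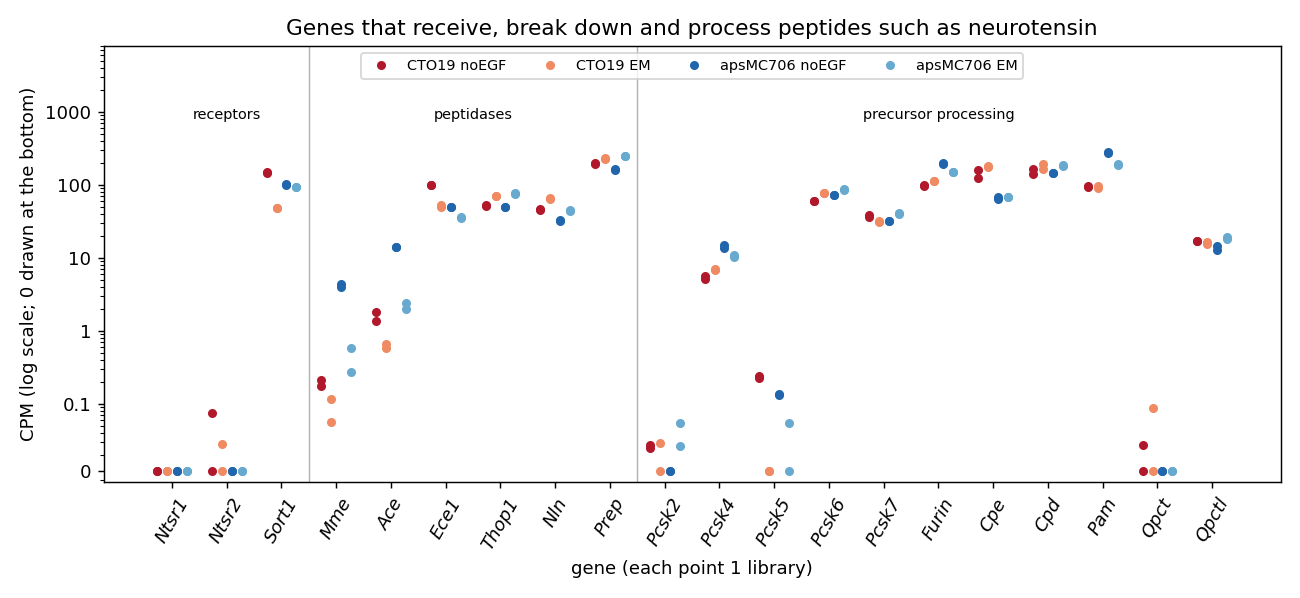
Levels of neurotensin receptors, peptidases and precursor-processing enzymes in each library, in CPM on a log axis with 0 at the bottom; colours mark the 4 groups. Ntsr1 is at 0 throughout, Sort1 is at 145 and 148 CPM in CTO19 noEGF, and Furin lies between 97.1 and 200 CPM in every library.

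Enterochromaffin cells, the serotonin-making endocrine cells, were covered by 10 genes, of which 8 were tested. In CTO19, 3 were higher and 3 lower in noEGF (median 0.3, or -0.01 with genes at 0 set to the 3-count limit, against 0.02), and in apsMC706 4 were higher and 1 lower (median 0.36, against 0). The share called was 75% in CTO19 and 62.5% in apsMC706, against 68% and 67.2% of all tested genes. Tph1, which makes the first step of gut serotonin, had at most 6 counts in any library. Slc18a1, a vesicular amine transporter, averaged 6.59 CPM in CTO19 noEGF and 2.63 CPM in CTO19 EM (log2 fold change 1.33, edgeR adjusted p = 1.01e-07), and 25.7 CPM in apsMC706 noEGF and 15.2 CPM in apsMC706 EM (0.76, adjusted p = 3.15e-07). Ddc, which makes the second step, had at most 0.135 CPM in CTO19 and 1.14 to 1.51 CPM in apsMC706. Slc18a1 was thus present in both lines and higher without EGF, while Tph1 was near 0. Slc18a2, also a vesicular amine transporter, averaged less without EGF, at 3.44 against 5.18 CPM in CTO19 and 4.5 against 5.15 CPM in apsMC706. Tph2, which makes the same first step as Tph1, averaged 0.605 CPM in apsMC706 noEGF and at most 0.175 CPM in the other groups.

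Nutrient receptors and channels of endocrine cells numbered 21, of which 17 stayed under 1 CPM and 6 were tested. Of the 6, 4 passed the filter in all groups (Ffar4, Slc5a1, Ffar2 and Cacna1a), and these 4 were higher in noEGF in both lines, where 34.7% of all tested genes were in CTO19 and 34.1% in apsMC706. Ffar4, a receptor for long-chain fatty acids, had 6.73 and 13.9 CPM in CTO19 noEGF and 0.782 and 0.534 CPM in CTO19 EM (log2 fold change 3.97, edgeR adjusted p = 0.00151). In apsMC706 it had 8.07 and 9.33 CPM in noEGF and 0.979 and 0.708 CPM in EM (3.36, adjusted p = 0.0025). Slc5a1, the sodium-glucose transporter of enterocytes and of some endocrine cells, averaged 24.4 CPM in CTO19 noEGF and 4.26 CPM in CTO19 EM (2.52, edgeR adjusted p = 4.97e-11). Both genes rose without EGF in both lines, and both are also used by absorptive cells.

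Secretory fate in the gut is set by Notch signalling, in which Hes1 represses Atoh1 and Atoh1 opens the route to goblet, Paneth and endocrine cells. Of 22 genes of this step, 16 were tested, with 9 higher and 5 lower in CTO19 noEGF (median 0.33, against 0.02) and 8 higher and 5 lower in apsMC706 noEGF (median 0.08, against 0). Called were 87.5% in CTO19 and 81.2% in apsMC706, against 68% and 67.2% of all tested genes. Atoh1 had 0.273 and 0.132 CPM in apsMC706 noEGF and 3.57 and 3.68 CPM in apsMC706 EM, the single group through which it passed the filter, and 1 to 2 counts in all per CTO19 group. Hes1 had 123 and 128 CPM in apsMC706 noEGF and 37 and 34.9 CPM in apsMC706 EM (1.8, adjusted p = 4.83e-13), and 62.7 and 66.2 CPM in CTO19 noEGF and 54 CPM in each CTO19 EM library (0.26, adjusted p = 0.000261). In apsMC706, then, Atoh1 was lower and Hes1 higher in the medium in which Insm1 was lower, and a link among the 3 was not tested.

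Receptors and ligands of the pathway also moved. Notch3 averaged 93.5 CPM in CTO19 noEGF and 27.3 CPM in CTO19 EM (log2 fold change 1.78, edgeR adjusted p = 2.77e-11), and 7.03 CPM in apsMC706 noEGF and 0.201 CPM in apsMC706 EM (5.1, adjusted p = 5.59e-11). Dll1, a ligand of secretory progenitors, averaged 13.6 CPM in CTO19 noEGF and 33.7 CPM in CTO19 EM (-1.31, edgeR adjusted p = 9.5e-09), and 1.2 CPM in apsMC706 noEGF and 0.563 CPM in apsMC706 EM (1.08, adjusted p = 0.00257). Lfng, which adds sugars to Notch receptors, rose in CTO19 (1.39) and fell by 1.51 on the log2 scale in apsMC706.

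Proteins through which Insm1 represses, with the silencer factor Rest and its partners, made a list of 15, and all 15 were tested. Zeb1 was over 1 CPM in CTO19 EM alone, at 1.36 and 1.4 CPM. In CTO19, 9 were higher and 2 lower in noEGF (median 0.23, against 0.02), and in apsMC706 5 were higher and 5 lower (median -0.06, against 0). The share called was 73.3% in CTO19 and 66.7% in apsMC706, against 68% and 67.2% of all tested genes. Kdm1a, the histone demethylase that Insm1 recruits, averaged 152 CPM in CTO19 noEGF and 101 CPM in CTO19 EM (log2 fold change 0.59, edgeR adjusted p = 1.02e-08), and 98 CPM in apsMC706 noEGF and 103 CPM in apsMC706 EM (-0.08, adjusted p = 0.108). Hdac1, a histone deacetylase of the same complexes, averaged 88.9 CPM in apsMC706 noEGF and 186 CPM in apsMC706 EM (-1.07, edgeR adjusted p = 1.33e-11). Rest, which silences neuronal genes elsewhere in the body, averaged 54.7 CPM in CTO19 EM and 40.1 CPM in apsMC706 EM (0.45 for CTO19 over apsMC706, edgeR adjusted p = 1.69e-06). Kdm1a and Rest were thus present in the line without Insm1 as well as in the line with it.

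Taking the first 7 lists together, without the Notch and Insm1 cofactor lists, 152 genes with 74 tested, 34 were higher and 17 lower in CTO19 noEGF, 68.9% called against 68% of all tested genes. In apsMC706 noEGF 34 were higher and 16 lower, 67.6% against 67.2%. The share called was thus at the background in each line alone. In the fit of both lines together 34 were higher and 12 lower, 62.2% against 48.8%. Between lines 79.7% were called in EM, against 71.3%, and 87.8% in noEGF, against 80%. These counts include genes that passed the filter in a single group or none. They were 2 factors, 3 hormones, 4 granule genes, 1 peptidase, 2 serotonin genes and 2 nutrient receptors or channels. Because the filter fixed their direction, shares above the background are given as description and are no test of the lists.

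Genes within 1 Mb of Nts and Insm1 were chosen by position after the values were known. The nearest protein-coding start to Nts was that of Rassf9, 21.7 kb away, which encodes a Ras-association domain protein. Rassf9 had 172 and 180 CPM in CTO19 noEGF and 61 and 58.3 CPM in CTO19 EM (log2 fold change 1.56, SE 0.0475, edgeR adjusted p = 2.95e-12), and 60.5 and 57.4 CPM in apsMC706 noEGF and 26 and 24.5 CPM in apsMC706 EM (1.22, adjusted p = 3.89e-11). Rassf9 therefore shared the direction of Nts in CTO19 at a smaller size, and it rose without EGF in apsMC706, where Nts stayed at the limit of detection. Mgat4c, on the other side at -809 kb, had 0.161 and 0.571 CPM in CTO19 noEGF and 40.8 and 37.6 CPM in apsMC706 noEGF, the line order opposite to that of Nts. Alx1, Lrriq1 and Slc6a15 had at most 1 count in any library.

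Around Insm1, 9 protein-coding genes started within 1 Mb and 6 were tested. Of these, Naa20, Crnkl1 and Xrn2, genes of protein acetylation, splicing and RNA decay, fell in apsMC706 without EGF, by 0.88, 0.72 and 0.59 on the log2 scale. Ralgapa2 rose there by 1.11, and Rin2 and Kiz changed by 0.07 and -0.09 (edgeR adjusted p = 0.162 and 0.29). In EM all 6 were lower in CTO19 than in apsMC706, by log2 fold changes of -0.78 to -2.12, a far smaller gap than that of Insm1. The endocrine factor genes Nkx2-2 and Nkx2-4, at the far end of the window, had 1 count and 0 counts in all.

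**Figure D4:**
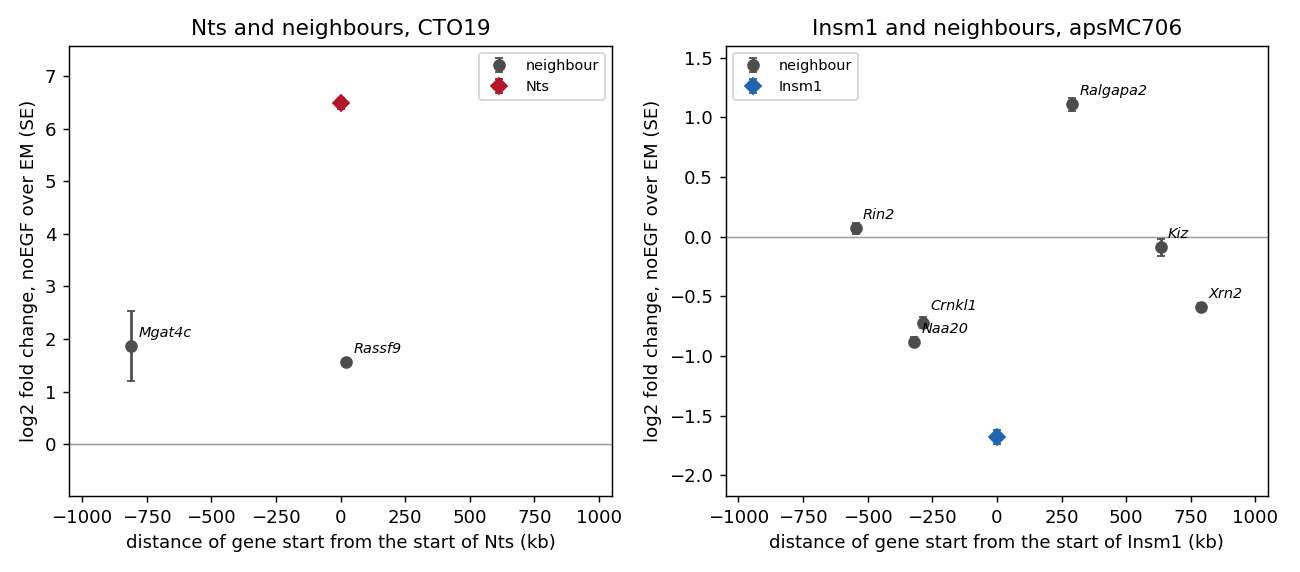
Log2 fold change of noEGF over EM with its SE for Nts and its tested neighbours in CTO19 and for Insm1 and its tested neighbours in apsMC706, against the distance between gene starts in kb. Nts at 6.48 stands far above Rassf9 at 1.56, and Insm1 at -1.68 lies under all 6 tested neighbours.

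The genes most like Nts and Insm1 were taken as those with the smallest root mean square difference of log2 CPM, centred on each gene's mean, over the 8 libraries. For Nts these were Kprp (0.555), Hrnr (0.58) and Krt1 (0.789), genes of the cornified layer of skin. Krt1, a keratin of differentiating epidermis, had 713 and 879 CPM in CTO19 noEGF, 21.4 and 23.1 CPM in CTO19 EM, 0.409 and 0.343 CPM in apsMC706 noEGF and 0.106 and 0.163 CPM in apsMC706 EM. Hrnr, hornerin, had 227 and 258 CPM in CTO19 noEGF, 4.11 and 2.61 CPM in CTO19 EM and at most 0.0265 CPM in apsMC706. The 3 nearest matches of Nts by this measure were thus squamous genes.

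For Insm1 the nearest included Hoxa10 (0.397) and Ptprt (0.603). Hoxa10, a homeobox factor of the posterior body, had 0.242 and 0.398 CPM in CTO19 noEGF, 0.0579 and 0.0281 CPM in CTO19 EM, 49.9 and 48.9 CPM in apsMC706 noEGF and 120 and 118 CPM in apsMC706 EM. Ptprt, a receptor-type phosphatase, had 0.108 and 0.298 CPM in CTO19 noEGF, 0.116 and 0.0562 CPM in CTO19 EM, 25.2 and 23.8 CPM in apsMC706 noEGF and 55 and 57 CPM in apsMC706 EM. In both genes, as in Insm1, the lines lay far apart in both media and the apsMC706 libraries were lower in noEGF than in EM. Ranked by Pearson correlation in place of distance, 0 of 3 genes were shared for Nts and 1 of 3, Ptprt, for Insm1, so the choice of measure decides the names.

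**Figure D5:**
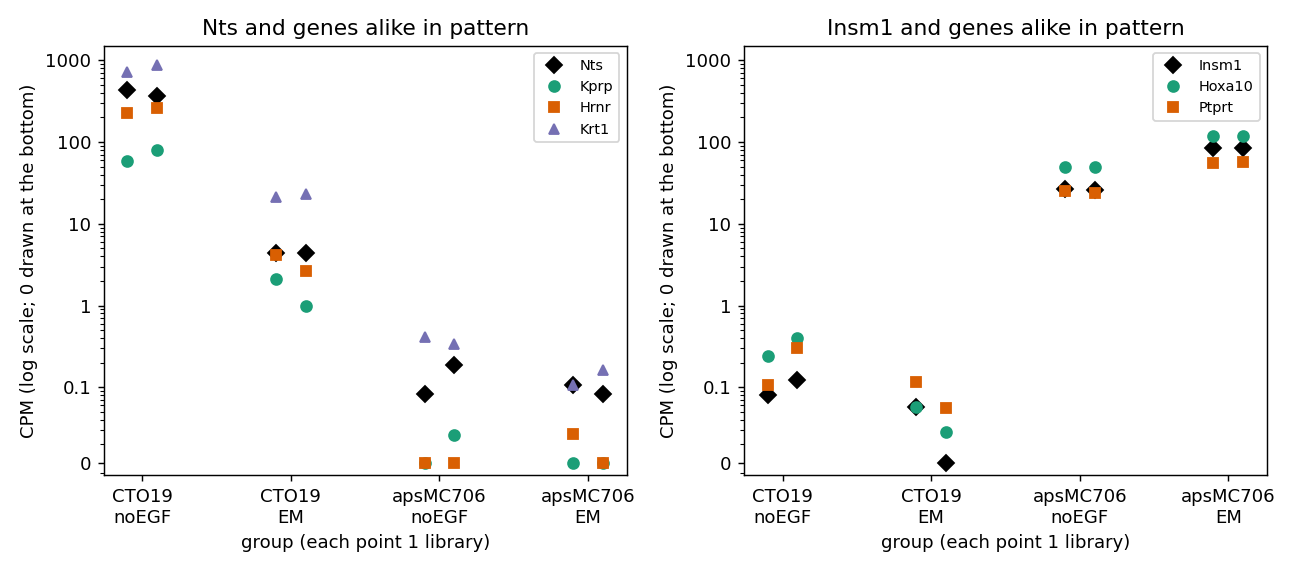
Nts with Kprp, Hrnr and Krt1, and Insm1 with Hoxa10 and Ptprt, in CPM on a log axis with 0 at the bottom, by group and library. The left set is highest in CTO19 noEGF, where Krt1 reaches 879 CPM, and the right set in apsMC706 EM, where Hoxa10 reaches 120 CPM.

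Markers of other cells that can make neurotensin or carry these genes were read beside Nts and Insm1. The 15 neuron and glia markers summed to 37.5 to 38.7 CPM in CTO19 noEGF and 104 to 109 CPM in CTO19 EM, and to 1.31 to 1.56 CPM in apsMC706 noEGF and 1.2 to 1.4 CPM in apsMC706 EM. Nearly all of it was Tubb3, a tubulin of neurons and some tumour cells, at 34 CPM in CTO19 noEGF and 101 CPM in CTO19 EM. The defining markers Elavl4, Sox10, Rbfox3 and Nefl had at most 2 counts in any library, so these genes were near 0, and within CTO19 the sum was lower in the medium where Nts was higher.

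The 12 fibroblast and immune markers summed to 17.1 to 19.6 CPM in CTO19 noEGF and 2.58 to 2.95 CPM in CTO19 EM. In apsMC706 the sum was 8.02 to 9.22 CPM in noEGF and 4.22 to 4.26 CPM in EM. It was thus higher without EGF in both lines, and unlike Nts it was lowest in CTO19 EM. Dcn and Csf1r made most of it in CTO19 noEGF, at 9.9 and 6.46 CPM, while Col1a2, Lum, Lyz2 and Ptprc had at most 5 counts in any library, and their part in the result was not tested. The 10 endothelial markers summed to 10.6 to 11.7 CPM in CTO19 noEGF, 6.27 to 6.74 CPM in CTO19 EM, 28.5 to 28.7 CPM in apsMC706 noEGF and 7.04 to 8.2 CPM in apsMC706 EM. Most of the apsMC706 noEGF sum was Vwf, at 27.5 CPM, while Pdpn and Ccl21a had at most 4 counts. Flt4 averaged 1.65 CPM in CTO19 noEGF and 0.27 CPM in CTO19 EM, and Tek 0.64 and 0.0145 CPM in the same groups. Lyve1 and Tie1 had the other order, at 0.284 and 0.83 CPM in CTO19 noEGF and 1.81 and 1.67 CPM in CTO19 EM. The part of these endothelial markers was not tested. The 12 tuft cell markers, of which 3 were at 0 everywhere, summed to 390 CPM in each CTO19 noEGF library and 543 to 559 CPM in CTO19 EM, against 22.4 to 22.9 CPM in apsMC706 noEGF and 46.2 to 49 CPM in apsMC706 EM. In CTO19 most of it was Ptgs1, a cyclooxygenase, at 320 CPM in noEGF and 469 CPM in EM. The tuft cell factor Pou2f3 and the channel Trpm5 had the other order, Pou2f3 at 5.5 CPM in CTO19 noEGF and 1.21 CPM in CTO19 EM and Trpm5 at 0.872 and 0.47 CPM in the same groups, and their part was not tested.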

How the data were processed

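Poly(A) RNA of 8 organoid libraries, 2 in each of 4 groups of line and medium, was analysed from the raw counts per gene that the authors deposited. Per the submitters' processing notes the authors used STAR 2.7.0a and mm10. For the counting program, strand setting and annotation the sources used here give no name. Per the labels' protocols the library kit does not mark the strand and 8 cycles of amplification were used. Reads without molecular identifiers are not independent molecules, so floors and intervals cover counting error only.

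Genes were named and placed with GENCODE M21 (32680 of 32728 identifiers found). With edgeR 4.0.16 in R 4.3.3, genes kept by filterByExpr (minimum count 10) numbered 16719, with 99.971% of counts. Levels are CPM after TMM scaling. Quasi-likelihood F-tests with robust moderation used a line and medium model (5 residual degrees of freedom) for both lines together and a model of the 4 group means (4 degrees of freedom) for the rest, two-sided, with Benjamini-Hochberg adjustment over all tested genes and a threshold of 0.05. A gene is called where it passed that threshold. The models were tested on simulated data. Folds against a group at 0 are bounds from 3 counts per library, and count ratios have exact 95% intervals.

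The members, lists and tests were chosen with earlier results of these data known. Named were the members, the targeted genes, up to 4 genes per list, direction and comparison of smallest p, and the 3 genes most alike to each tested member. The other genes, among them all of the marker lists, the neighbours and the genes at or near 0 counts, were named after their values were seen. Promoter windows came from RefSeq (GRCm38.p6), with 7 of 8 members matched, and Insm1 without an entry. Alternatives covered size factors, filters, limma 3.58.1 voom, DESeq2 1.42.0, the replicate block and each library left out. Values of 4 genes of these lists are not reported here.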

Additional observations from a re-analysis of the deposited data

Results flagged for a closer look

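Of 105 tested genes of the 9 neuroendocrine, Notch and cofactor lists, 18 (17.1%) were called in opposite directions in the 2 lines for noEGF against EM, and for each the response of CTO19 minus that of apsMC706 (log2 scale) passed the edgeR threshold. The same held for 13.3% of all 16719 tested genes. Nts and Insm1 were not in these 9 lists, so they could not be among the 18.

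Among endocrine factors, Foxa1 differed by 1.82 and Rfx3, a factor of ciliated and endocrine cells, by 1.43. Among secretion genes, Syt7 differed by -1.63 and Ica1, an islet cell autoantigen on vesicles, by -0.53. Among enzymes, Ctsl, a lysosomal protease, differed by -1.42, Maoa, which breaks down serotonin, by -1.23, the convertases Pcsk4, Furin and Pcsk7 by -0.8, -0.62 and 0.61, and the deacetylase Hdac1 by 1.23.

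The Notch pathway held 8 of the 18. The receptors Notch1 and Notch2 differed by 0.81 and 0.8, and Lfng, which modifies them, by 2.89. The ligands Dll1, Jag1 and Jag2 differed by -2.39, -1.27 and -1.46, so the 3 ligands were lower in noEGF in CTO19 and higher in apsMC706. The nuclear partner Rbpj differed by -0.8 and Hes6, a helix-loop-helix factor, by 1.62.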

How the results depend on the processing

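Of 180 alternative values of the counts of called genes, 179 stayed within 1.5 times the reported count. The exception was the count of neuroendocrine list genes called over both lines, 28 in place of 46 with a filter of 1 CPM in at least 4 libraries, under which fewer genes were tested. The other alternative values were less stable: 120 were labelled the same, 25 moved and 1 reversed. The Nts difference between media in CTO19 was 6.36 to 6.61 on the log2 scale with each library left out in turn, and that of Insm1 in apsMC706 was -1.73 to -1.6. For Nts in apsMC706 the fitted value of 0.5 ranged from -0.2 to 0.94, with the lowest without apsMC706 noEGF replicate 2, and for Insm1 in CTO19 it ranged from 0.8 to 5, since both rest on single counts. The Insm1 gap between lines in EM ranged from -14.63 to -10.44. An arm left with 1 library was taken to vary like the other groups.

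The replicate number as a block gave 11415 called genes for the media in CTO19, 11315 in apsMC706, 6988 over both lines, 9406 for the difference of the responses, 11989 for the lines in EM and 13422 in noEGF, against 11376, 11236, 8157, 9366, 11921 and 13375 without the block. Differences between replicates correlated between groups by -0.00825 to 0.0485 across genes, so the numbers were not taken to pair the libraries.

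With 2 libraries a group the spread is poorly known, and genes under 3 counts per library, 0.0745 to 0.0868 CPM, cannot be compared.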
